A study of Mus musculus with 3 samples.

Results

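Meioc, Dmc1, Sycp1, Sycp3, Syce2, Stag3, Smc1b, Hormad1, Hormad2 and Tex15 are 10 genes of meiotic prophase, followed here in testes of newborn mice, whose male germ cells have not yet begun meiosis. They were chosen by name, with earlier results of these data known, and all 10 are among the 27998 genes of the count matrix. Each was read in the germ cells that the authors deposited as clusters A to E, in each library, and set against every other cell of the matrix.

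Meiotic prophase pairs homologous chromosomes and recombines them. Chromosome loops are tied to an axis that contains meiotic forms of cohesin, the ring that holds sister chromatids together. The synaptonemal complex then zips the axes of homologs to each other while DNA breaks are repaired. In male mice this program starts well after birth, and Stra8, a gene that responds to retinoic acid, acts at meiotic entry. Transcripts of some parts of the program are known to be present long before, in prospermatogonia and spermatogonia, where promoters of germline genes have lost the DNA methylation and the repression that keep them silent in somatic cells.

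The testes came from untreated males at postnatal day 3, offspring of heterozygous parents of mixed background, from B6(Cg)-Tyrc-2J/J and FVB/NJ. Cdk2-Y15S is homozygous for the YS allele (Cdk2 YS/YS), Cdk2-HET carries it once (Cdk2 +/YS) and Cdk2-WT is Cdk2 +/+. The allele changes a tyrosine of the cell cycle kinase CDK2 to serine at the site where phosphorylation holds the kinase inactive, in every cell of the animal. The study concerns the role of CDK2 kinase activity in what male germ cells become. Each genotype gave 1 library of single cells read from the 3′ ends of transcripts (10x Genomics), and the number of animals pooled is not stated in the labels. All differences between genotypes therefore describe single libraries, with no replicate check and no test, and the counts do not read the changed codon.

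The libraries held 4403 cells (Cdk2-Y15S), 4958 cells (Cdk2-HET) and 5061 cells (Cdk2-WT), with 28651691, 32025077 and 30624473 unique molecular identifiers (UMIs, 1 per captured transcript). The authors' germ cells number 72 for Cdk2-Y15S and 69 for Cdk2-WT, with medians of 18461.5 and 16653 UMIs, and none is from Cdk2-HET. Cluster A holds 36 Cdk2-WT cells, B 6 Cdk2-Y15S and 28 Cdk2-WT cells, C 8 and 5, D 37 Cdk2-Y15S cells and E 21. So clusters A, D and E each rest on 1 library, and there cluster and genotype cannot be told apart. Every one of these cells carried UMIs of at least 2 of the germ cell genes Ddx4, Dazl and Mael. The summed level of 7 germ cell markers was 2200 to 2654 CPM (UMIs of a gene per 1000000 UMIs of the set of cells) across clusters and libraries. Summed Sertoli cell markers lay at 156 to 560 CPM there, macrophage markers at 0 to 1.94 CPM, and mesenchyme markers at 120 to 274 CPM except in cluster C, with 1361 CPM in Cdk2-Y15S and 1348 CPM in Cdk2-WT. Over 10% mitochondrial UMIs were found in 37 of 72 Cdk2-Y15S and 45 of 69 Cdk2-WT germ cells. Between 27 and 32 barcodes were shared by each pair of libraries.

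The promoters are shown first, and whether their motifs bear on the cells in which the genes are read was not tested. Repressor complexes that silence germline genes in somatic and embryonic stem cells contain MGA with MAX, which reads the E-box CACGTG, and E2F6, which reads TCCCGC or its reverse complement GCGGGA. RefSeq start sites (GRCm38.p6, the genome of the files' mm10) were found for 9 of the 10 genes. In the 250 bases before the start, CACGTG occurred at the first listed start site of 4 of the 9 (Sycp1, Sycp3, Stag3 and Hormad1), against 6.05% of 27018 first start sites, and in Syce2 only at its second. TCCCGC or GCGGGA occurred at the first start site of 6 of the 9 (Meioc, Dmc1, Sycp3, Syce2, Smc1b and Hormad1), against 16.9%. Both strands were read, CACGTG being the same on either. Both motifs occurred together, without sharing bases, at the first start sites of Sycp3 and Hormad1, against 1.47% of first start sites, and at the second of Syce2. Hormad2 held neither. The windows held 10 to 26 CpG sites, against a median of 6 (quartiles 2 and 16) in all promoters. Both motifs contain a CpG, and their shares were not set against promoters of like CpG content.

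The windows given here are those with both motifs and those of Smc1b, abundant in germ cells and rare in others, and Meioc, whose level differed most between genotypes. Each is the strand of the gene, 5′ to 3′, ending at the base before the RefSeq start, with the motif letters in capitals. The window of Meioc lies inside its GENCODE M21 locus, which starts at base 102663716, so the annotations differ on its start.
Hormad1 (chr3:95559427-95559676, plus strand): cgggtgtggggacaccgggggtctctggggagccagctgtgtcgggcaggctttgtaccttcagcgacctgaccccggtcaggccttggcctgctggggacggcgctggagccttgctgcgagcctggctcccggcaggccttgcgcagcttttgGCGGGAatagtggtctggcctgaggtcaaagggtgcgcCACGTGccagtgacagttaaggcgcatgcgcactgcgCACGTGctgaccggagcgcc
Sycp3 (chr10:88459337-88459586, plus strand): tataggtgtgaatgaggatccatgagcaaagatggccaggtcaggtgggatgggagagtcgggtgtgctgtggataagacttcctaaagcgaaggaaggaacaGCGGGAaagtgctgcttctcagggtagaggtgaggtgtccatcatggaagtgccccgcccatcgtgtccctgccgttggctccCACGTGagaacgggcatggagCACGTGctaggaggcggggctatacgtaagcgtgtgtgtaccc
Syce2, second start site (chr8:84872008-84872257, plus strand): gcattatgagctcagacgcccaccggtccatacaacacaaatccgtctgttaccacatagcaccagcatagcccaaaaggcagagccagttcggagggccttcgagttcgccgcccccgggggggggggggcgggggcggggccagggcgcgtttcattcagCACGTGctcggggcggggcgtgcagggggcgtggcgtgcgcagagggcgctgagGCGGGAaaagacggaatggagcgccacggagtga
Smc1b (chr15:85131958-85132207, minus strand): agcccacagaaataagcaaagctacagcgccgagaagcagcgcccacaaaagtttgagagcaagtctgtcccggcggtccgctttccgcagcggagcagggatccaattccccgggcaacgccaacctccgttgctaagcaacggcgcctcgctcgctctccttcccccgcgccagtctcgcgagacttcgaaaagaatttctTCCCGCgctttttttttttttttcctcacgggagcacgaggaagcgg
Meioc (chr11:102665335-102665584, plus strand): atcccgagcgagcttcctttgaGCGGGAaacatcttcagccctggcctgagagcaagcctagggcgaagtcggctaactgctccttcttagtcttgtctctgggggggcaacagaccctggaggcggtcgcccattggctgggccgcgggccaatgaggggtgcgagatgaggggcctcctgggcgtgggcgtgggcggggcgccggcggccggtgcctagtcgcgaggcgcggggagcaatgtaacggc
Hormad1 has a CACGTG with 14 bases between it and the start, and Sycp3 one with 37 bases between. The GCGGGA of Syce2 lies 28 bases from its start, and the TCCCGC of Smc1b 41 bases from its own. A match of letters is a description and not a site of binding.

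Every deposited germ cell carried transcripts of several of the 10 genes. A cell had UMIs of 3 to 9 of them in Cdk2-Y15S and 4 to 9 in Cdk2-WT, with a median of 6 in both. At a fixed 13000 UMIs per cell the range was 2 to 7 in 64 Cdk2-Y15S cells and 4 to 8 in 61 Cdk2-WT cells, with medians of 5 and 6. Summed over the 10 genes, a cell held a median of 11.0 UMIs per 10000 in Cdk2-Y15S (4.37 to 29.6) and 12.9 in Cdk2-WT (5.83 to 26.6). Syce2, a protein of the central element of the synaptonemal complex, was seen in 72 of 72 Cdk2-Y15S and 68 of 69 Cdk2-WT germ cells. Smc1b, a meiotic cohesin subunit, was seen in 70 of 72 and 61 of 69, and Sycp1, the transverse filament that bridges the axes, in 67 of 72 and 67 of 69. Tex15, which acts in meiotic recombination and in silencing of transposons, was seen in 64 of 72 and 64 of 69. The rarest were Meioc (5 of 72 Cdk2-Y15S and 24 of 69 Cdk2-WT cells), Dmc1 (11 of 72 and 17 of 69) and Hormad2 (17 of 72 and 11 of 69). In Sertoli cells, which should lack Smc1b, Sycp1, Tex15 and Meioc, shares at median depths of 6244 (Cdk2-Y15S) and 6136.5 UMIs (Cdk2-WT) were 0.292% and 0.235% for Smc1b, 0.76% and 1.10% for Sycp1, 1.52% and 1.49% for Tex15, and 0% (0 of 1710 cells, which allows up to 0.175%) and 0.0392% for Meioc.

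Germ cells stood above the other cells of their own library for each of these genes. With at least 20 UMIs in the pair of sums and a ratio of at least 2-fold counted, 9 of 9 genes were higher in Cdk2-Y15S germ cells, against 25.0% of the 13959 genes past that floor. In Cdk2-WT it was 10 of 10, against 30.2% of 13965 genes. Meioc missed the floor in Cdk2-Y15S, with 5 UMIs in germ cells and 5 in the other cells. Hormad1 and Hormad2 in Cdk2-Y15S, with 18 and 12 UMIs in the other cells, passed it only with their germ cell UMIs. So did Meioc in Cdk2-WT, with 12 UMIs in the other cells. The 10 were chosen as meiotic genes with earlier results known, so these counts are a description and no support. The median log2 ratio was 5.06 in Cdk2-Y15S and 5.15 in Cdk2-WT, against 0.07 and 0.25 over all genes. The other cells include 44 Cdk2-Y15S and 57 Cdk2-WT cells that carry the same germ cell markers and lie outside the authors' germ cell table, and the counts of genes are the same without them. The sizes are not: without these cells the median log2 ratio was 5.60 in Cdk2-Y15S and 6.14 in Cdk2-WT, and that of Hormad1 was 8.32 in Cdk2-Y15S, against 5.45 with them.

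Smc1b and Hormad1 were almost confined to germ cells. Smc1b had 171 CPM in Cdk2-Y15S germ cells (95% Poisson interval 150.3 to 194). It had 0.557 CPM in the other Cdk2-Y15S cells with UMIs of fewer than 2 of Ddx4, Dazl and Mael, which can still hold some germ cell marker UMIs. In Cdk2-WT it had 212 CPM in germ cells (187 to 239) and 0.447 CPM in other cells with fewer than 2 of these markers. Hormad1, an axis protein that monitors synapsis, was counted 41 times in 72 Cdk2-Y15S germ cells. It was counted 2 times in 4287 other Cdk2-Y15S cells with fewer than 2 of these markers. In Cdk2-WT it was counted 63 times in 69 germ cells and 3 times in 4935 such cells. Expressed as a share of the germ cell level of the same library, Smc1b in Sertoli cells was at 0.238% (Cdk2-Y15S), 0.162% (Cdk2-HET) and 0.171% (Cdk2-WT). Tex101, Sall4 and Mov10l1 ranged from 0.0715% to 0.322% in the same cells. In mesenchymal cells Smc1b was at 0.195%, 0.335% and 0.435% in Cdk2-Y15S, Cdk2-HET and Cdk2-WT, and Tex101, Sall4 and Mov10l1 ranged from 0% to 0.439%. Smc1b lay above Sall4 and Mov10l1 there in each library, and above Tex101 in Cdk2-Y15S and Cdk2-WT. That order rests on 3, 6 and 6 UMIs of Smc1b in Cdk2-Y15S, Cdk2-HET and Cdk2-WT. Tex101 had 1, 6 and 2 UMIs, Sall4 and Mov10l1 had 0 or 1 in each, and the CPM intervals overlap. Stag3, the partner subunit of meiotic cohesin, was at 0.803% in Cdk2-Y15S, 0.131% in Cdk2-HET and 0.0884% in Cdk2-WT Sertoli cells, on 5, 1 and 1 UMIs, and at 2.20%, 0% and 2.02% in mesenchymal cells on 10, 0 and 9 UMIs.

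Syce2 had the highest somatic CPM of the 10 genes in all 3 libraries. Sertoli cells were chosen by at least 3 of 7 marker genes and no UMI of Ddx4, Dazl or Mael. They had 102 CPM in Cdk2-Y15S (96.8 to 108), 125 CPM in Cdk2-HET (120.0 to 131) and 139.6 CPM in Cdk2-WT (134 to 145). That is 24.7%, 36.1% and 42.7% of the germ cell level of the same library, where the germ cells of Cdk2-HET are those chosen by markers. Mesenchymal cells had 42.7, 57.5 and 72.8 CPM, or 10.3%, 16.5% and 22.2%. In both cell types the order was Cdk2-Y15S below Cdk2-HET below Cdk2-WT, with intervals that do not overlap, which cover counting error only. At 5000 UMIs per cell, Syce2 was seen in 87.5% of Cdk2-Y15S and 73.9% of Cdk2-WT germ cells, against 26.9% of Cdk2-Y15S, 33.9% of Cdk2-HET and 40.5% of Cdk2-WT cells outside the authors' germ cell table. The 3′ part of its locus overlaps Gcdh, the gene of an enzyme of lysine breakdown on the other strand, and no label states whether the counting used strand. Gcdh had 5.00 CPM in Cdk2-Y15S and 5.77 CPM in Cdk2-WT germ cells, and 17.3, 19.5 and 19.2 CPM in Sertoli cells of Cdk2-Y15S, Cdk2-HET and Cdk2-WT, below Syce2 in each.

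**Figure D1:**
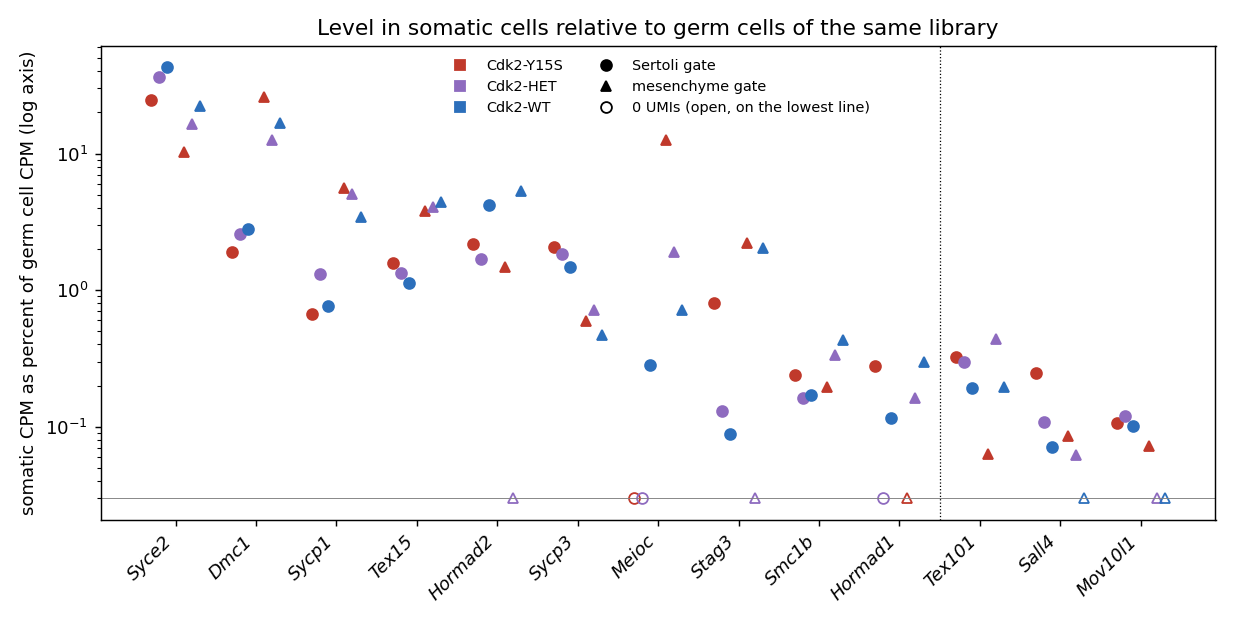
Level in Sertoli cells (circles) and mesenchymal cells (triangles) as a percent of the germ cell level of the same library, on a log axis, for the 10 genes and, right of the dotted line, 3 germ cell genes; colours mark the libraries and open symbols stand for 0 UMIs. Syce2 lies between 10.3% and 42.7%, while Smc1b and Hormad1 lie below 0.5%.

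Sycp1, Tex15 and Dmc1 had lower somatic CPM than Syce2, and more of it in mesenchyme than in Sertoli cells. Sycp1 had 10.3 CPM (Cdk2-Y15S), 11.2 CPM (Cdk2-HET) and 8.76 CPM (Cdk2-WT) in mesenchymal cells, and 1.22, 2.92 and 1.94 CPM in Sertoli cells. Tex15 had 5.46, 7.38 and 9.22 CPM in mesenchymal cells, and 2.28, 2.42 and 2.36 CPM in Sertoli cells. Dmc1, the recombinase that acts only in meiosis, had 2.23, 2.14 and 2.92 CPM in mesenchyme (26.0%, 12.6% and 16.9% of its low germ cell level) on 19 to 20 UMIs each, and 0.163, 0.435 and 0.484 CPM in Sertoli cells on 2, 7 and 8 UMIs. Smc1b, at a germ cell level near that of Sycp1, had 0.334, 0.642 and 0.922 CPM in mesenchyme of Cdk2-Y15S, Cdk2-HET and Cdk2-WT. Sycp3, the lateral element of the synaptonemal complex, ran the other way, with 1.95, 1.93 and 1.45 CPM in Sertoli cells and 0.557, 0.748 and 0.461 CPM in mesenchymal cells. Sycp3 lies within Chpt1, a phospholipid enzyme gene on the other strand, which had 66.6, 54.0 and 60.9 CPM in Sertoli cells and 38.6, 35.7 and 35.8 CPM in mesenchyme.

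Between genotypes, 1 of the 10 genes was at least 2-fold lower in Cdk2-Y15S than in Cdk2-WT germ cells, near the 8.54% of all 9736 genes past the floor. None was 2-fold higher, against 3.81% of all genes. The median log2 ratio of the 10 was -0.45, against -0.05 over all genes, and 8 of the 10 ratios were below 0, against 53.7% of all genes. Counting intervals lay below 0 for 5 genes, against 17.0% of all genes, and above 0 for 1, against 13.7%. Such intervals are narrower for abundant genes, so these shares depend on level as well as on the size of a difference.

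Meioc was the gene past the threshold. MEIOC binds the RNA helicase YTHDC2 and in mice is needed for germ cells to hold a meiotic program once it has begun. It was counted 5 times in Cdk2-Y15S germ cells (3.57 CPM, 1.16 to 8.33) and 26 times in Cdk2-WT germ cells (21.4 CPM, 14.0 to 31.4), a log2 ratio of -2.48 (-4.32 to -1.18). UMIs were found in 6.94% of Cdk2-Y15S cells (2.29 to 15.5, exact binomial) and 34.8% of Cdk2-WT cells (23.7 to 47.2). At 13000 UMIs per cell, 2 of 64 Cdk2-Y15S and 15 of 61 Cdk2-WT cells kept one. Of the 26 Cdk2-WT UMIs, 18 were in cluster A, which has no Cdk2-Y15S cell. The ratio rests on few molecules and passes the floor only through those of Cdk2-WT. It falls under the floor in germ cells with at most 10% mitochondrial UMIs and where clusters B and C are weighted equally.

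Dmc1, with 12 UMIs in Cdk2-Y15S and 21 in Cdk2-WT, had 8.56 CPM in Cdk2-Y15S and 17.3 CPM in Cdk2-WT (log2 ratio -0.99, -2.17 to 0.07). Hormad1 had 29.3 CPM in Cdk2-Y15S and 51.9 CPM in Cdk2-WT (-0.82, -1.43 to -0.24). Tex15 had 145 CPM in Cdk2-Y15S and 209 CPM in Cdk2-WT (-0.53, -0.80 to -0.26). For Sycp1 the levels were 183 CPM in Cdk2-Y15S and 253 CPM in Cdk2-WT (-0.46, -0.71 to -0.22). The intervals of Hormad1, Tex15 and Sycp1 lay below 0, each for a change of less than 2-fold. Stag3 had 50.7 CPM in Cdk2-Y15S and 68.4 CPM in Cdk2-WT (-0.43, -0.91 to 0.04). Smc1b had 171 CPM in Cdk2-Y15S and 212 CPM in Cdk2-WT (-0.31, -0.57 to -0.05), a difference that turned to 0.33 in germ cells with at most 10% mitochondrial UMIs.

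Sycp3 had 94.2 CPM in Cdk2-Y15S and 98.1 CPM in Cdk2-WT (-0.06, -0.43 to 0.31), and the ratio was 0.09 where clusters B and C were weighted equally. Hormad2, the second axis protein of its family, had 14.99 CPM in Cdk2-Y15S and 11.5 CPM in Cdk2-WT on 21 and 14 UMIs (0.36, -0.67 to 1.47). Syce2 alone had an interval above 0, with 415 CPM in Cdk2-Y15S (382 to 450.5) and 327 CPM in Cdk2-WT germ cells (296 to 361), a log2 ratio of 0.34 (0.16 to 0.53). In somatic cells the same gene was lower in Cdk2-Y15S than in Cdk2-WT, as given above. The germ cells of the libraries differed in genes of dividing cells, a split taken up below. A UMI of Mki67 or Top2a was found in 70 Cdk2-Y15S germ cells and not in 2, against 47 and 22 in Cdk2-WT. Among cells with one, Syce2 had 417 CPM in Cdk2-Y15S and 373 CPM in Cdk2-WT. Smc1b had 174 and 249 CPM there, and Sycp3 94.6 and 77.2 CPM. The part of this imbalance in the genotype ratios was not tested.

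**Figure D2:**
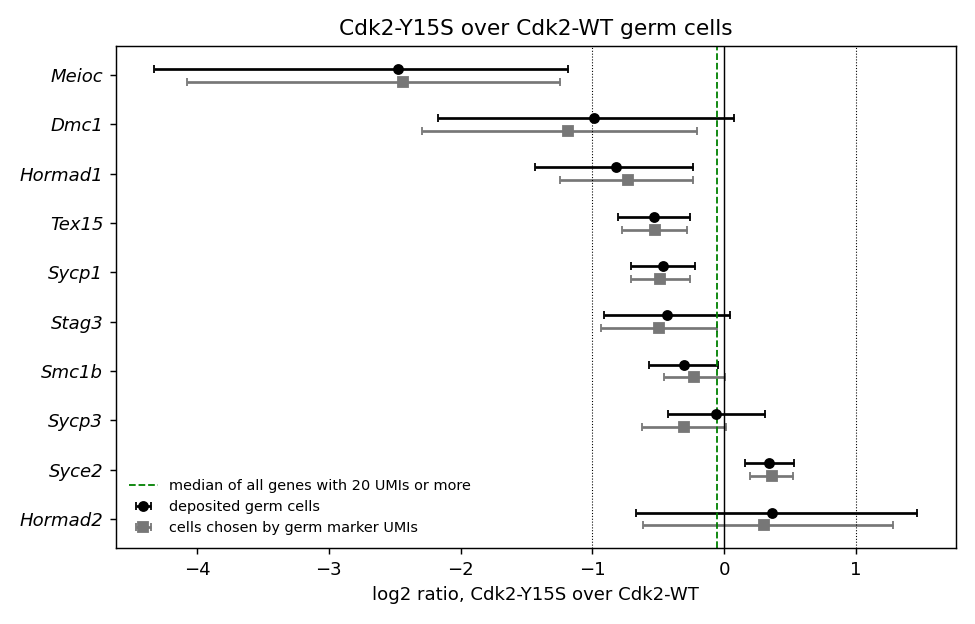
Log2 ratio of Cdk2-Y15S over Cdk2-WT germ cells for each gene, in the deposited germ cells (circles) and in cells chosen by germ cell markers (squares), with 95% counting intervals; the green line is the median of all genes and dotted lines mark 2-fold. Meioc lies at -2.48 and Syce2 at 0.34 in the deposited germ cells. The ratio of 0.33 for Smc1b in germ cells with at most 10% mitochondrial UMIs is not drawn.

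Across the clusters, the abundant genes of the 10 were read in every set of cells. Sycp1 had 178 CPM in cluster E and 173 CPM in cluster D of Cdk2-Y15S, and 247 CPM in cluster A and 264 CPM in cluster B of Cdk2-WT. Tex15 had 159 CPM (E) and 137 CPM (D) in Cdk2-Y15S, and 239 CPM (A) and 177 CPM (B) in Cdk2-WT. Hormad1 ranged from 15.5 CPM in E of Cdk2-Y15S to 99.3 CPM in the 5 Cdk2-WT cells of C, where its interval runs from 39.9 to 205 CPM. Meioc was at 0 UMIs in both libraries of cluster C, which allows up to 28.0 CPM in Cdk2-Y15S and 42.6 CPM in Cdk2-WT. Dmc1 was at 0 UMIs in Cdk2-Y15S cells of B and C, which allows up to 20.2 and 28.0 CPM.

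Within Cdk2-WT, clusters A and B gave a share of these genes past 2-fold that was near the share of all genes. The proliferation gene Mki67 had 20.2 CPM in A and 181 CPM in B of Cdk2-WT. Of the 9 genes past the floor, Meioc alone reached 2-fold between A and B, against 11.2% of 7249 genes either way. It had 30.3 CPM in A and 14.6 CPM in B, on 18 and 8 UMIs, with a log2 ratio of 1.01 whose interval includes 0 (-0.22 to 2.46). Intervals excluded 0 for 4 of the 9 genes, against 19.7% of all genes. Smc1b was lower in A, with 163 CPM against 270 CPM in B (-0.72, -1.11 to -0.35), and so was Syce2, with 286 CPM in A and 361 CPM in B (-0.33, -0.64 to -0.03). Sycp3 was higher in A, with 126 CPM against 76.6 CPM in B (0.71, 0.16 to 1.30), and so was Tex15 (0.43, 0.05 to 0.82). The intervals of Sycp1, Stag3, Hormad1 and Dmc1 included 0, and Hormad2 missed the floor.

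In Cdk2-Y15S, no difference between clusters E and D was detectable in these genes. None of the 7 past the floor reached 2-fold, against 4.75% of 6838 genes, and every one of their intervals included 0, against 9.48% of all genes with an interval that did not. The narrowest was that of Syce2, with 410 CPM in E and 414 CPM in D (log2 ratio -0.01, -0.28 to 0.26). Stra8 had 317 CPM in E and 194 CPM in D.

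In the clusters that hold both libraries, the numbers are small. In B, Smc1b had 169 CPM in 6 Cdk2-Y15S cells and 270 CPM in 28 Cdk2-WT cells (-0.66, -1.35 to -0.06), the only interval there that excludes 0 among the 7 genes past the floor, against 9.40% of 5309 genes. The 6 Cdk2-Y15S cells of B had Sertoli markers at 560 CPM against 188 CPM in the 28 Cdk2-WT cells, mesenchyme markers at 263 against 120 CPM and germ cell markers at 2205 against 2605 CPM, and the part of these in the difference was not tested. Sycp1 in B had 216 CPM in Cdk2-Y15S and 264 CPM in Cdk2-WT (-0.28, -0.89 to 0.27). In C, Syce2 had 559 CPM in 8 Cdk2-Y15S cells and 412 CPM in 5 Cdk2-WT cells (0.43, -0.22 to 1.13), and no interval of the 4 genes past the floor excluded 0, against 9.08% of 1619 genes. The mesenchyme marker level of cluster C, given above, stood beside these values, and its part in them was not tested. Without cluster C the same ratio of Cdk2-Y15S over Cdk2-WT germ cells was on the same side of 0 for all 10 genes.

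**Figure D3:**
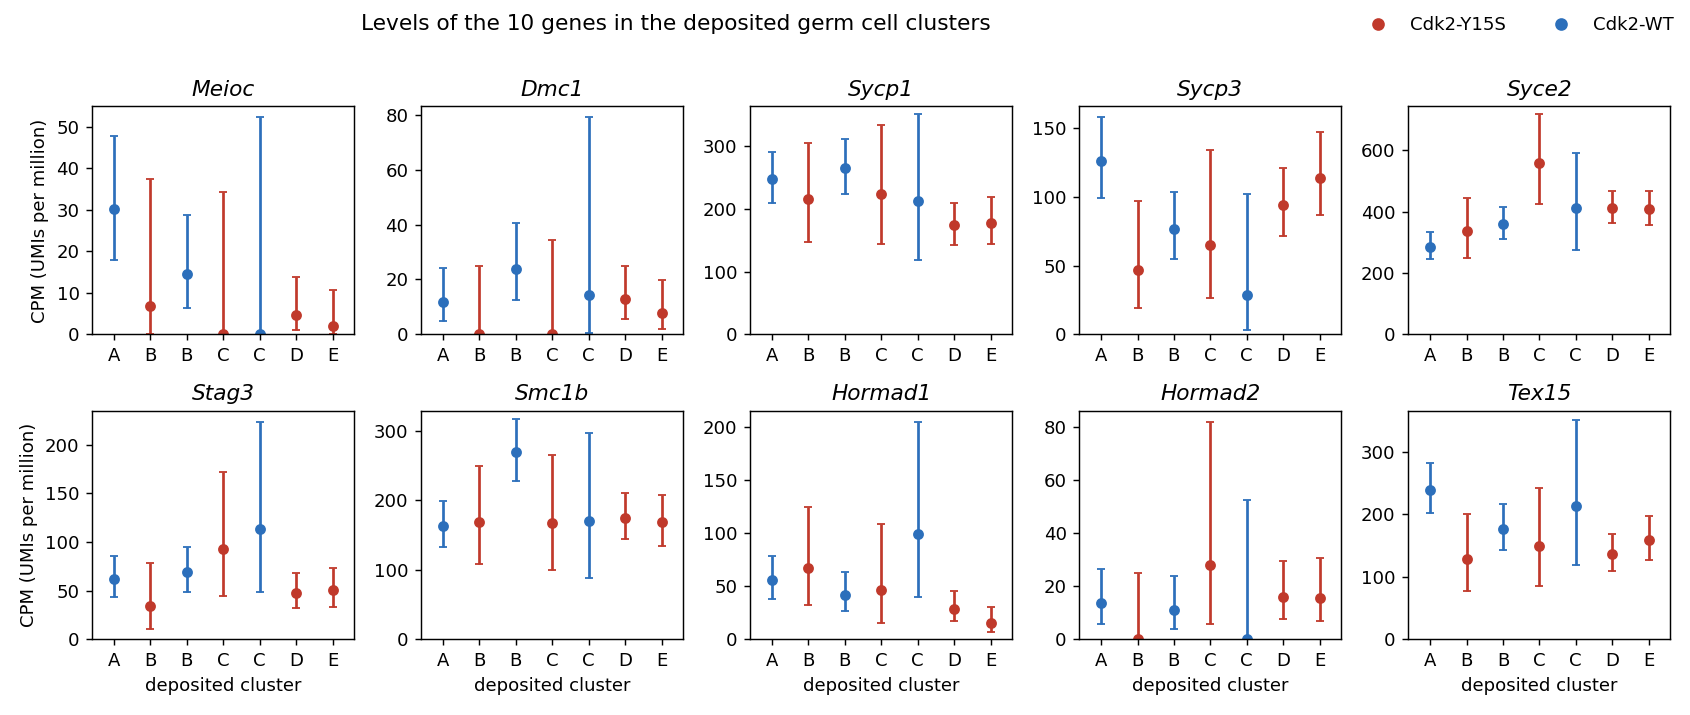
CPM of each gene in the deposited clusters A to E, with Cdk2-Y15S in red and Cdk2-WT in blue and bars for the 95% Poisson interval; clusters B and C hold both libraries. Meioc reaches 30.3 CPM in cluster A and is at 0 in cluster C, and Smc1b is highest at 270 CPM in Cdk2-WT cells of B.

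The heterozygote could be read only in cells chosen by germ cell markers, which gave 116 Cdk2-Y15S, 69 Cdk2-HET and 126 Cdk2-WT cells. In these cells Meioc had 3.45 CPM in Cdk2-Y15S (6 of 116 cells), 17.0 CPM in Cdk2-HET (14 of 69) and 19.9 CPM in Cdk2-WT (29 of 126). Dmc1 had 7.47 CPM in Cdk2-Y15S, 17.0 CPM in Cdk2-HET and 17.3 CPM in Cdk2-WT. Hormad1 had 32.8 CPM in Cdk2-Y15S, 65.7 CPM in Cdk2-HET and 54.5 CPM in Cdk2-WT. For these genes Cdk2-HET lay near Cdk2-WT. No interval of Cdk2-HET over Cdk2-WT excluded 0 for the 10 genes, against 10.9% of 9876 genes, and the ratios ran from -0.44 (Stag3, -1.001 to 0.09) to 0.37 (Hormad2, -0.80 to 1.46). Cdk2-Y15S over Cdk2-WT in the same cells gave -2.43 for Meioc (-4.08 to -1.24), -1.18 for Dmc1 (-2.29 to -0.21) and 0.36 for Syce2 (0.19 to 0.53). Median depths of these cells were 14938.5, 12456 and 13277.5 UMIs in Cdk2-Y15S, Cdk2-HET and Cdk2-WT. Their summed mesenchyme markers stood at 449, 522 and 171 CPM in the same order, and Sertoli markers at 324, 443 and 293 CPM. The part of these in the ratios was not tested.

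**Figure D4:**
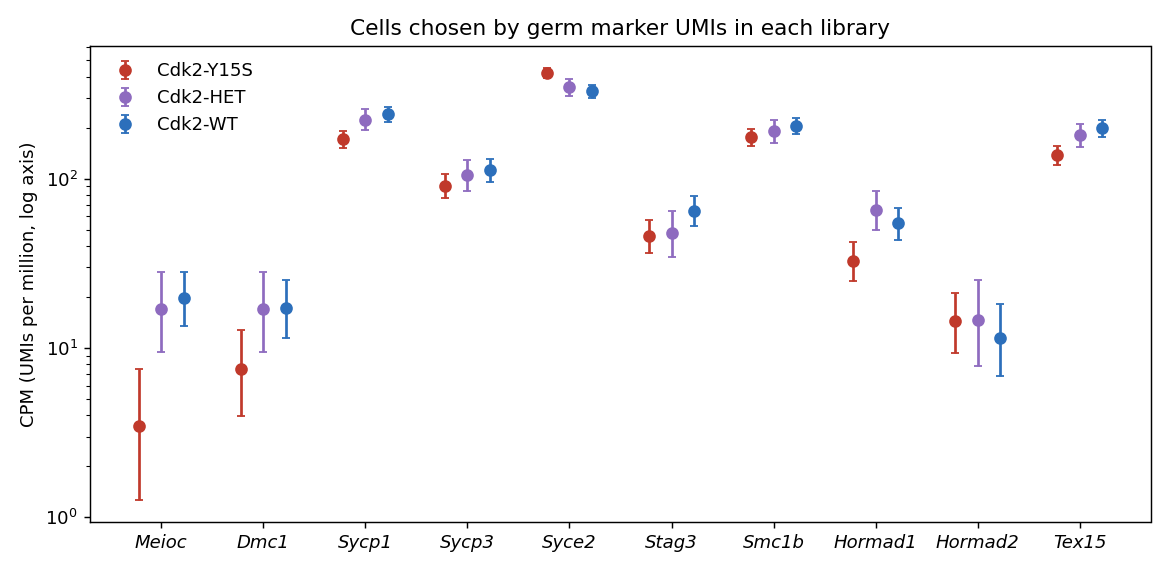
CPM of the 10 genes, on a log axis with 95% Poisson intervals, in cells chosen by germ cell markers in Cdk2-Y15S, Cdk2-HET and Cdk2-WT. Meioc is at 3.45, 17.0 and 19.9 CPM, and the intervals of Cdk2-HET and Cdk2-WT overlap for every gene.

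Cells were split by a UMI of Mki67 or Top2a, genes of dividing cells, a split chosen after the data were seen. In cells that carried one, Syce2 was higher in somatic and Cdk2-WT germ cells, and Smc1b in Cdk2-WT germ cells. Among mesenchymal cells, Syce2 had 114 CPM with and 22.8 CPM without such a UMI in Cdk2-Y15S (log2 ratio 2.33, 2.03 to 2.63). In Cdk2-HET it had 124 and 31.2 CPM (1.99, 1.73 to 2.25), and in Cdk2-WT 155 and 40.6 CPM (1.94, 1.67 to 2.21). Sertoli cells showed a smaller difference in the same direction, with 129 and 76.5 CPM in Cdk2-Y15S (0.76), 143 and 109.9 CPM in Cdk2-HET (0.38) and 156 and 127 CPM in Cdk2-WT (0.30), all with intervals above 0. In these somatic cells every interval of Smc1b included 0, on few UMIs. That of Sycp1 lay above 0 in Cdk2-HET Sertoli cells (1.39, 0.48 to 2.43). In mesenchyme, on few UMIs, so did those of Meioc in Cdk2-Y15S (4 with and 0 without) and Cdk2-HET (3 and 0) and of Stag3 in Cdk2-WT (6 and 3). Among Cdk2-WT germ cells, 47 with such a UMI had 373 CPM of Syce2 and the other 22 had 218 CPM (0.77, 0.42 to 1.16). For Smc1b the levels in these Cdk2-WT germ cells were 249 CPM with and 123 CPM without (1.01, 0.55 to 1.53). Sycp3 went the other way there, with 77.2 CPM with and 148 CPM without (-0.94, -1.48 to -0.39). The remaining 7 genes had intervals that include 0 in Cdk2-WT germ cells, so 3 of the 9 past the floor excluded it, against 16.0% of 7473 genes. In Cdk2-Y15S, 70 of 72 germ cells carried such a UMI, so the split gives no comparison there. Cells with such a UMI were deeper, at a median of 7203 against 5322.5 UMIs in Cdk2-Y15S mesenchyme and 17148 against 15671 UMIs in Cdk2-WT germ cells.

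**Figure D5:**
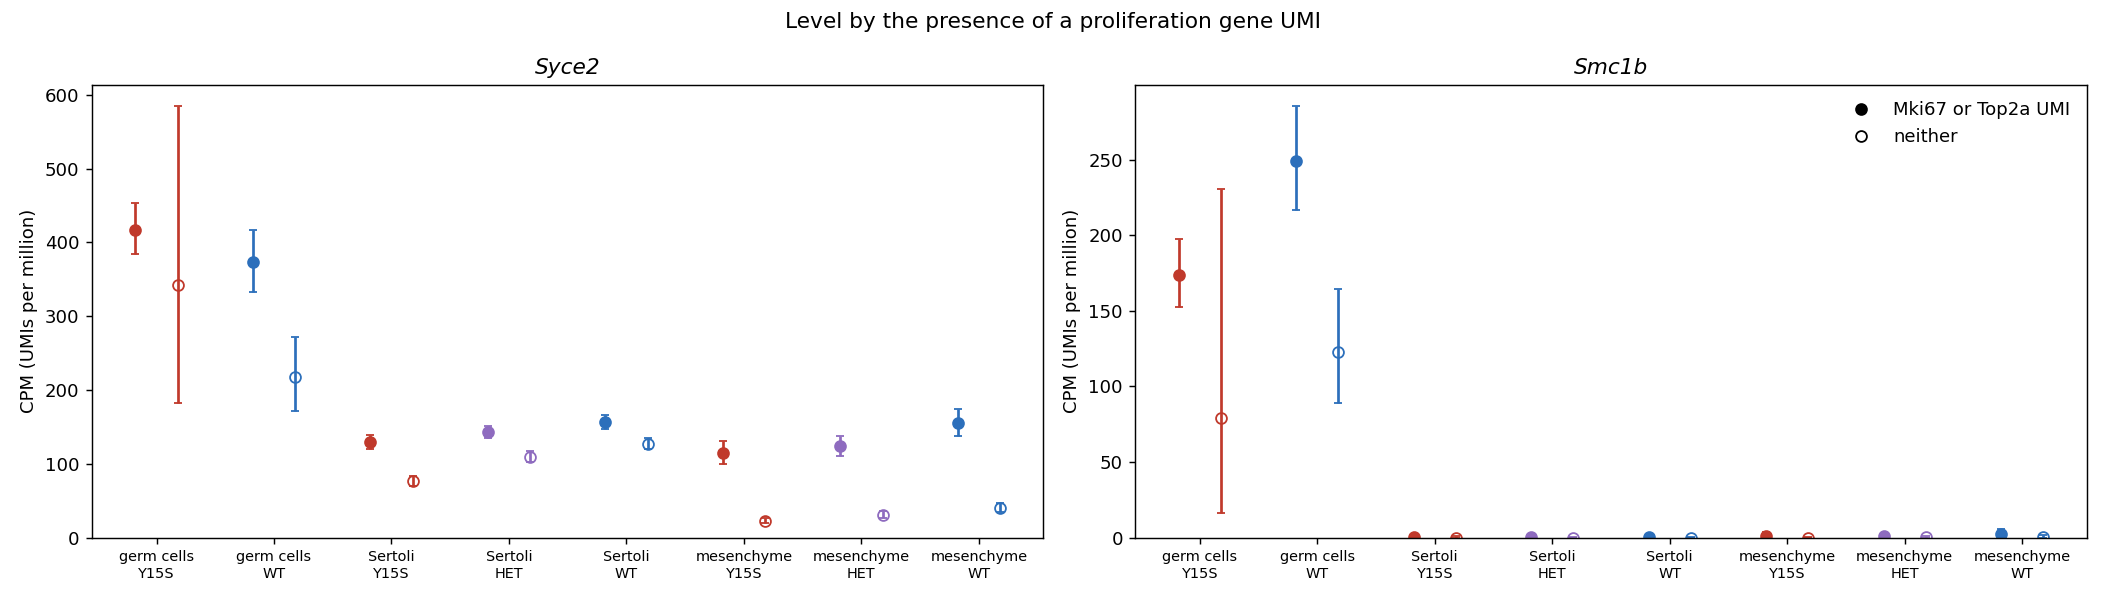
CPM of Syce2 and Smc1b, with 95% Poisson intervals, in cells with (filled) and without (open) a UMI of Mki67 or Top2a, for germ, Sertoli and mesenchymal cells of each library. Syce2 in Cdk2-WT mesenchyme is at 155 CPM with and 40.6 CPM without, and Smc1b stays near 0 in somatic cells.

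Stra8 differed more between the libraries than any of the 10 genes, with 218 CPM in Cdk2-Y15S and 26.4 CPM in Cdk2-WT germ cells (log2 ratio 3.03, 2.52 to 3.62). Within Cdk2-Y15S, 44 germ cells with a Stra8 UMI and 28 without were compared, at median depths of 19120.5 and 17367.5 UMIs. This split was also chosen after the data were seen. These cells have not begun meiosis, so a Stra8 UMI is not read here as meiotic entry. Sycp3 had 112 CPM in cells with and 64.9 CPM in cells without (0.78, 0.22 to 1.39). Sycp1 had 205 CPM in cells with and 148 CPM in cells without (0.46, 0.08 to 0.87). Intervals excluded 0 for these 2 of the 8 genes past the floor, against 10.5% of 7570 genes, and the ratio of Syce2 was 0.07 (-0.17 to 0.32).

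Other meiotic genes were read from lists of roles, with 57 of 77 past the floor of 20 UMIs over both libraries. Of these, 3 were at least 2-fold lower in Cdk2-Y15S than in Cdk2-WT germ cells, against 8.54% of all genes past the floor. Another 3 were at least 2-fold higher, against 3.81% of all genes. The same shares of all genes stand beside the count of each list below. The median log2 ratio of the 57 was -0.16, against -0.05 over all genes. Among the 10 further genes of the axis and synaptonemal complex, 1 was 2-fold lower and none higher. Tex12, a central element protein that works with SYCE2, had 139.9 CPM in Cdk2-Y15S and 362 CPM in Cdk2-WT (-1.37, -1.62 to -1.13). Sycp2, the axial partner of SYCP3, had -0.81 (-1.49 to -0.17). The highest were Trip13, the remodeller that strips HORMAD proteins from the axis (0.80, 0.31 to 1.32), and Fkbp6 (0.29, 0.04 to 0.55). Tex12 and Syce2, whose proteins bind each other, thus had ratios on opposite sides of 0.

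Of 21 genes of break formation and recombination past the floor, 2 were 2-fold lower and 1 higher. Ankrd31, which helps place DNA breaks, had 13.6 CPM in Cdk2-Y15S and 33.8 CPM in Cdk2-WT (-1.30, -2.18 to -0.50). Zcwpw1, a reader of histone marks at break sites, had 42.1 CPM in Cdk2-Y15S and 89.9 CPM in Cdk2-WT (-1.09, -1.58 to -0.62). The damage kinase gene Atm had 47.1 CPM in Cdk2-Y15S and 20.6 CPM in Cdk2-WT (1.17, 0.51 to 1.92), and the nuclease gene Exo1 had 0.84 (0.26 to 1.47). None of 9 cohesin genes past the floor reached 2-fold, from Nipbl, the cohesin loader (-0.86, -1.25 to -0.48), and Rad21 (-0.44) to Sgol2a (0.15) and Smc1a (0.54, -0.04 to 1.16). Smc1a and Rad21 are the mitotic counterparts of Smc1b and of the meiotic kleisins. None of 4 genes of chromosome ends and nuclear envelope past the floor reached 2-fold, from Ccne1, a cyclin partner of CDK2 (-0.69, -1.28 to -0.12), and Ccne2 (-0.42) to Sun2 (-0.21) and Sun1 (0.02).

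Genes of entry into meiosis held the widest spread, with 2 of 13 past the floor 2-fold higher and none lower. These were Stra8, given above, and Dmrtb1, a regulator of the switch from mitosis to meiosis (17.8 CPM in Cdk2-Y15S and 5.77 CPM in Cdk2-WT, 1.56, 0.38 to 3.08). The lowest were Tex14, of intercellular bridges (-0.78, -1.24 to -0.33), and Ythdc2, the partner of MEIOC (17.8 CPM in Cdk2-Y15S and 29.7 CPM in Cdk2-WT, -0.73, -1.53 to 0.04). Rbm46, a further partner of MEIOC and YTHDC2 named here after its value was seen, had 133 CPM in Cdk2-Y15S and 66.8 CPM in Cdk2-WT (0.99, 0.61 to 1.39). Among repressors of meiotic and germline genes, 20 of 22 were past the floor, with a median of 0.08, 1 being 2-fold higher and none lower. That was Dnmt3b, a de novo DNA methyltransferase (108 CPM in Cdk2-Y15S and 44.5 CPM in Cdk2-WT, 1.27, 0.82 to 1.75), followed by L3mbtl2 (0.78). The lowest were Dnmt3a (-0.73, -1.11 to -0.36) and Rnf2 (-0.72, -1.25 to -0.20).

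Genes with the most like pattern were ranked for the 7 of the 10 genes with at least 100 UMIs, by Pearson correlation of log2(CPM + 10) over the 7 sets of 1 cluster in 1 library, among 2283 genes of at least 200 UMIs. The sets share libraries and depth, and the values are a description. Syce2 ran closest to Safb (0.98), Smc2 (0.97), a condensin subunit of dividing cells, and Zmat2 (0.97). Smc1b ran closest to Sae1 (0.94), Zcrb1 (0.94) and Smarcc1 (0.88). Sycp3 had Rnf138 (0.99), Arl6ip6 (0.95) and Hsd17b12 (0.95), and Sycp1 had Txnip (0.95), Emb (0.94) and Chd6 (0.94). Tex15 had Rpl23a-ps3 (0.98), H2afy (0.97) and Auts2 (0.97). Stag3 had Phf20 (0.97), Golph3 (0.96) and Ahctf1 (0.95), and Hormad1 had Qk (0.97), Sfmbt2 (0.96) and Igf1r (0.95). No gene was shared by these lists of 3.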

How the data were processed

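Single cells of testis were measured in 3 libraries, 1 per genotype. The authors deposited UMI counts per gene and cell for all cells, and a second table of counts with cluster labels for their germ cells. The tools were Cell Ranger 2.1.0 and Seurat and the genome was mm10, per the submitters' processing notes. No label states how the germ cells were chosen and clustered or whether counting used strand. All 1471899 values of the germ cell table that could be matched by gene symbol equal those of the matrix.

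The 10 genes, the lists and the rules were chosen with earlier results of these data known. Deposited counts were summed per set of cells and divided by all UMIs (CPM), with exact Poisson intervals. Shares of cells carry exact Clopper-Pearson intervals, and log2 ratios (0.5 UMIs added) carry exact conditional binomial intervals. All are 95% intervals and cover counting error only, without spread between animals. Ratios needed 20 UMIs over both sums, and 2-fold was the size counted. A count of 0 was taken to allow 3. Shares across depths used cells thinned to 13000 or 5000 UMIs, and 8 Cdk2-Y15S and 8 Cdk2-WT germ cells were below 13000. Cells chosen by germ cell markers had a UMI of at least 2 of Ddx4, Dazl and Mael. Sertoli cells had at least 3 of Amh, Sox9, Dhh, Aard, Cldn11, Rhox8 and Fshr. Mesenchymal cells had at least 4 of Dcn, Pdgfra, Col1a1, Col3a1, Dpt and Lum and no Amh. Both lacked Ddx4, Dazl and Mael. No doublet caller was run.

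Named besides the 10 were list genes at least 2-fold apart, the 2 highest and 2 lowest of each list, and the 3 genes most like each of the 10. Of the list genes, Terb2 and Majin were not matched. Promoters came from RefSeq (GRCm38.p6) and loci from GENCODE M21. The code was tested on simulated data. Python 3.11.15, NumPy 2.4.6, pandas 2.3.3, SciPy 1.17.1 and Matplotlib 3.10.9 were used.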

Additional observations from a re-analysis of the deposited data

How the results depend on the processing

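The number of the 10 genes at least 2-fold lower in Cdk2-Y15S than in Cdk2-WT germ cells, 1 as reported, was 2 with the mean of per-cell CPM, 2 without mitochondrial UMIs in the denominator and 2 in cells chosen by germ cell markers, where Dmc1 joined Meioc (log2 ratios of Dmc1 -1.01, -1.002 and -1.18). It was 0 with clusters B and C weighted equally and 0 at a floor of 50 UMIs, where 7 genes passed and Meioc did not. Other meiotic genes 2-fold lower numbered 8 of 77 with no filter on UMIs, where the share of all genes was not computed. The median log2 ratio of those of the 10 past the floor lay between -0.49 and -0.28 over the alternatives. Only 7 passed in germ cells with at most 10% mitochondrial UMIs, with clusters B and C weighted equally and at a floor of 50 UMIs, and Meioc was not among them. In germ cells with at most 10% mitochondrial UMIs, Smc1b turned to 0.33, Syce2 was 0.71 and Hormad1 was -1.23. With clusters B and C weighted equally Sycp3 turned to 0.09. Of 101 ratios between genotypes under the alternatives, 97 moved by less than their counting interval. These 97 include 7 at the floor of 50 UMIs and 10 with no filter on UMIs, which equal the reported ratios and could not move. Of the 4 that moved further, 3 came from the limit of 10% mitochondrial UMIs, where 4 others did not. The remaining 1 came from equal weights for B and C, where 6 others did not. No paired analysis was possible because there is 1 library per genotype, and none could be left out. Depth limits Meioc, Dmc1 and Hormad2, which had 31 to 35 UMIs over both libraries. Leaving out cluster C was chosen after seeing the data.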
